A study of Neurospora crassa with 2 samples.

Results

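Transcripts of 5 genes of DNA methylation and heterochromatin, out of the 9454 genes in the deposited table of Neurospora crassa, were compared between a wild-type strain and a upf1 knockout strain. They are dim-2 (NCU02247), dim-5 (NCU04402), dim-7 (NCU04152), hpo (NCU04017) and rid (NCU02034), chosen by identifier from a rule that uses no measured value, though with earlier results of these data known. UPF1 is the RNA helicase of nonsense-mediated mRNA decay, which degrades mRNAs whose translation ends at a premature stop codon. Hyphae, the filaments of this ascomycete fungus, were sampled at an age of 2 days from 2% glucose medium in constant light after 2 weeks on minimal slants. Neither strain received a further treatment. For either strain, RNA from 3 independent flasks was combined, and its polyadenylated fraction was sequenced as 1 library. The sources used here do not give the knocked-out part of upf1, the strain background or the mating type. The upf1 gene itself (NCU04242, RefSeq symbol prd-6) stood at 2.78 RPKM in the knockout against 22.6 RPKM in the wild type, the direction the labels give.

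In N. crassa, heterochromatin forms mainly over AT-rich DNA left behind by repeat-induced point mutation (RIP), a process of the sexual cycle that mutates duplicated sequences. There the histone methyltransferase DIM-5 trimethylates lysine K9 of histone H3, guided by DIM-7 within a cullin-based complex called DCDC. Heterochromatin protein HP1, the product of hpo, binds this mark and brings in DIM-2, the enzyme that methylates cytosines. RID is a relative of DNA methyltransferases with a part in RIP. In vegetative cells DIM-2, DIM-5, DIM-7 and HP1 thus serve 1 linear pathway, which does not bar roles at other stages. RID is known for its role before meiosis.

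The deposited RPKM values are reads scaled by gene model length and library total, and can be compared between genes. The length behind RPKM was checked for 7359 genes with more than 100 reads in each library. For 95 of them it differed between the libraries by more than 0.1%. The knockout library holds 56306422 reads in the table and the wild-type library 28189643. With 1 pooled library per strain there is no replicate check and no test between strains, and no p-value is given. The 95% intervals below cover counting error only: exact Poisson intervals for a level and exact Clopper-Pearson intervals for a ratio of read shares. Without molecular identifiers, reads may be copies of one molecule. Log2 ratios are knockout over wild type computed as log2(RPKM + 1), where the added 1 shrinks the difference of rare transcripts. Calls of higher or lower start at 2-fold in these units, among genes that reach 5 RPKM in either library.

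None of the 5 genes differed 2-fold between the libraries. Each had more reads per library total in the knockout, by 1.13-fold to 1.51-fold, although for dim-7 the sign was lost with TMM scaling (log2 ratio -0.0073). Among 7367 genes above the 5 RPKM minimum, 16.5% were at least 2-fold higher and 5.52% at least 2-fold lower. The counting interval lay above a ratio of 1 for all 5 genes, and it did so for 53.7% of those 7367, so such an interval is common at this depth. The log2 ratios of the 5 genes ran from 0.16 to 0.53 with a median of 0.41, beside a median of 0.15 and an interquartile range of -0.28 to 0.69 over all genes above the minimum. All 5 lay inside that range, as 50% of genes do by definition. The minimum was passed by 4 of the 5, each in both libraries, and rid was below it. In pooled hyphae, a different number of cells of one type and a different amount of RNA per cell cannot be told apart.

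The gene of the enzyme that writes cytosine methylation, dim-2, had 3101 reads and 11.9 RPKM in the knockout against 1126 reads and 8.73 RPKM in the wild type. It was 1.36-fold higher in the knockout (1.27 to 1.46). Its gene model occupies bases 1060391 to 1064819 of supercontig 7 on the minus strand (coordinates as deposited; the sources used here name no build). The model spans 4429 bp, and the length behind its RPKM is 4365 bp. The level of dim-2 exceeded that of 39.7% of all genes in the knockout against 37.4% in the wild type, so that the transcript was of modest abundance in both strains.

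The HP1 gene hpo was the most abundant of the 5 in both libraries. Its 5873 knockout reads correspond to 49.3 RPKM and its 2068 wild-type reads to 35.0 RPKM, 1.41-fold higher in the knockout (1.34 to 1.48). It occupies bases 2175920 to 2178102 of supercontig 6 on the plus strand, a span of 2183 bp with 1999 bp behind the RPKM value. Its level exceeded that of 75.9% of genes in the knockout against 71.1% in the wild type. Relative to dim-2, the methyltransferase that HP1 recruits, the hpo level was 4.14 times as high in the knockout against 4.01 times as high in the wild type.

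The histone methyltransferase gene dim-5 had 677 reads, or 10.03 RPKM, in the knockout against 222 reads, or 6.64 RPKM, in the wild type. Its ratio was the highest of the 5, 1.51-fold (1.30 to 1.77), with an interval wider than those of dim-2, dim-7 and hpo, which had more reads. The gene model, 1217 bp at bases 3480970 to 3482186 of supercontig 4 on the minus strand, is the shortest of the 5. Short gene models had higher ratios in this table, with a median log2 ratio of 0.33 in the eighth of genes that holds dim-5. After subtraction of that median its log2 ratio went from 0.53 to 0.20. For dim-2, which is among the longest models, where the median was -0.10, the same step gave 0.51 in place of 0.41, so the order of dim-5 and dim-2 turned over.

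The gene of the targeting protein DIM-7 differed least. The table gave dim-7 2625 reads and 17.8 RPKM in the knockout, against 1152 reads and 15.8 RPKM in the wild type, 1.13-fold higher (1.05 to 1.21). Its log2 ratio of 0.16 was close to that of the median gene. Scaled by the median log2 ratio of 0.15, its ratio of read shares was 1.02 with an interval of 0.947 to 1.09 that includes 1. This scaling is approximate, as that median carries the added 1 and read shares do not. The dim-7 model occupies bases 5012013 to 5014628 of supercontig 5 on the minus strand and carries the product name hypothetical protein in the table.

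Of the 5 genes, rid was the rarest in both libraries. It had 203 reads and 1.34 RPKM in the knockout against 72 reads and 0.960 RPKM in the wild type, 1.40-fold higher (1.06 to 1.85). Scaled by the median log2 ratio in the same approximate way, this interval, 0.956 to 1.67, includes 1. Its level exceeded that of 12.7% of genes in the knockout against 13.7% in the wild type. The model, product name RIP defective, occupies bases 1611931 to 1614468 of supercontig 1 on the minus strand. The level of dim-2, its relative, was 8.88 times that of rid in the knockout against 9.09 times in the wild type.

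**Figure D1:**
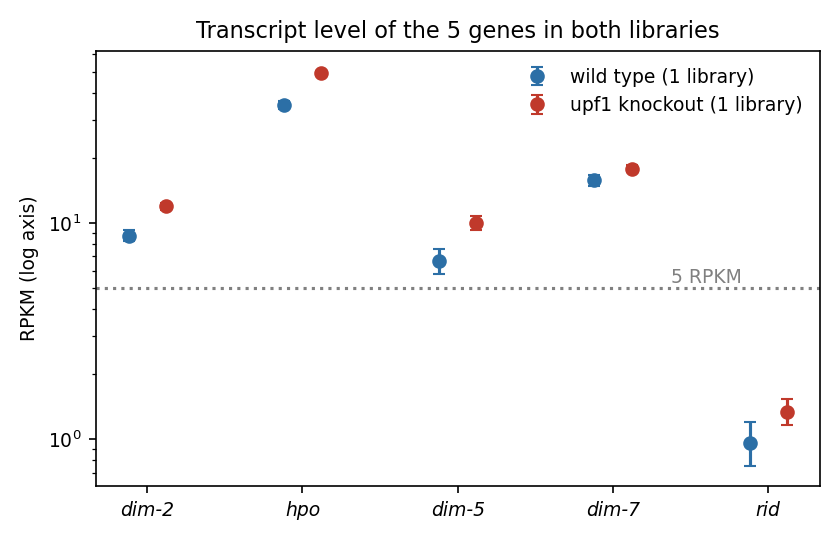
Level of each of the 5 genes in RPKM on a log axis, in the wild-type library (blue) and the upf1 knockout library (red), 1 pooled library each, with 95% Poisson counting intervals as bars; the dotted line is the minimum of 5 RPKM. The order hpo, dim-7, dim-2, dim-5, rid is the same in both libraries, and rid is at 1.34 and 0.960 RPKM.

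The order of levels, hpo above dim-7, dim-2, dim-5 and rid, was the same in both libraries. Neighbours in that order were separate beyond counting error, the closest being dim-2 at 11.9 RPKM (11.5 to 12.3) and dim-5 at 10.03 RPKM (9.29 to 10.8) in the knockout. Of the RPKM summed over the 5 genes, hpo made up 54.5% in the knockout against 52.2% in the wild type. The share of dim-2 was 13.2% and 13.01%, that of dim-5 11.1% and 9.89%, and that of rid 1.48% and 1.43%. The share of dim-7 was 19.7% in the knockout against 23.5% in the wild type, the one share of the 5 that was lower in the knockout.

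The ratio of one gene divided by that of another does not depend on how the library totals are scaled, but it does change with length centring. Among the 10 pairs of the 5 genes, 3 had a 95% interval for this quotient that excluded 1, from a normal approximation on the log scale that covers counting error only. All 3 hold dim-7 as the lower gene. The quotient was 1.34 (1.13 to 1.58) for dim-5 over dim-7, 1.25 (1.14 to 1.36) for hpo over dim-7 and 1.21 (1.10 to 1.33) for dim-2 over dim-7. With length centring dim-5 and dim-7 came to like log2 ratios of 0.20 and 0.16. For rid over dim-7 it was 1.24 (0.937 to 1.63). Between hpo and dim-2 it was 1.03 (0.948 to 1.12), so at this depth a difference between the ratios of these 2 genes was not detectable.

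**Figure D2:**
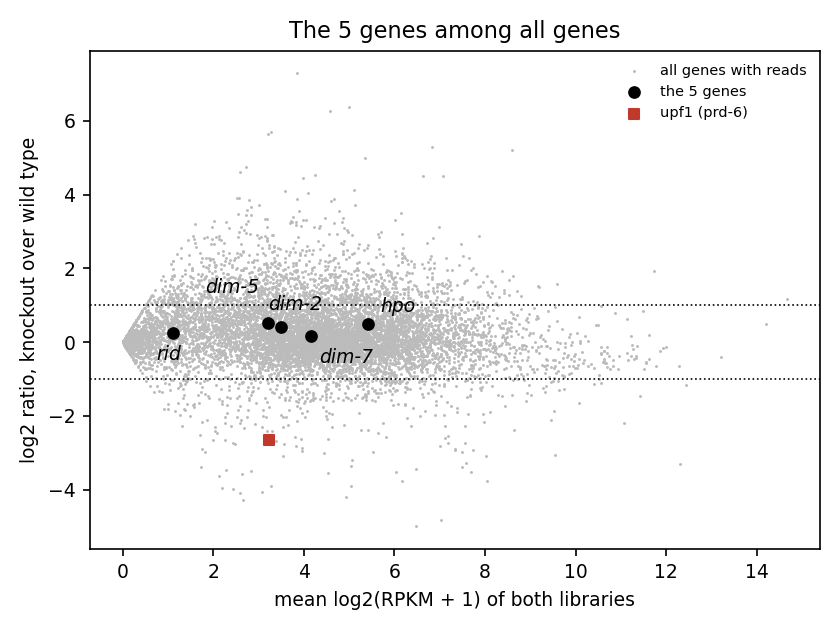
Log2 ratio of knockout over wild type against the mean log2(RPKM + 1) of both libraries for all genes with reads (grey), with the 5 genes in black, upf1 as a red square and dotted lines at 2-fold. The 5 genes lie between 0.16 and 0.53 within the main cloud of points, and upf1 at -2.65 stands below it.

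DIM-5 and DIM-7 work in DCDC together with DIM-9, the DNA damage-binding protein DIM-8 and the cullin CUL4, a scaffold that ubiquitin ligases share. The 3 other DCDC genes were within 2-fold, where 16.5% of all genes above the minimum were at least 2-fold higher and 5.52% at least 2-fold lower. Of the 3, 2 had ratios close to that of dim-5, a likeness lost with length centring (log2 ratios of 0.56 for dim-8, 0.58 for dim-9 and 0.20 for dim-5). The adaptor gene dim-8 had 31.6 RPKM in the knockout against 22.7 RPKM in the wild type, 1.39-fold higher (1.33 to 1.46). The gene of the further subunit, dim-9, had 17.6 and 11.4 RPKM, 1.54-fold higher (1.43 to 1.66). The scaffold gene cul-4 went the opposite way, with 17.9 RPKM in the knockout against 24.0 RPKM in the wild type, 1.35-fold lower (1.28 to 1.42). These directions for dim-8, dim-9 and cul-4 held under TMM scaling and under centring by the median or by length.

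As a result the order of DCDC transcripts differed between the libraries. In the wild type cul-4 and dim-8 were the most abundant, at 3.62 and 3.42 times the level of dim-5. In the knockout dim-8 stood alone at 3.15 times dim-5, and cul-4 at 1.78 times was level with dim-7 and dim-9, at 1.78 and 1.75 times. The quotient of ratios, free of the scaling of totals, was 2.03 (1.73 to 2.39) for dim-5 over cul-4 and 1.52 (1.39 to 1.66) for dim-7 over cul-4. In both libraries dim-5, the catalytic subunit, had the lowest level of these 5 genes.

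HP1 also acts in HCHC, a histone deacetylase complex that it forms with HDA-1, CDP-2 and CHAP. All 3 genes of its partners were within 2-fold with ratios above 1. Among all genes above the minimum, 40.6% had a ratio below 1, 16.5% were at least 2-fold higher and 5.52% at least 2-fold lower. For cdp-2, whose chromodomain protein links HDA-1 to HP1, the values were 25.7 and 17.7 RPKM, 1.45-fold higher in the knockout (1.35 to 1.57), close to the 1.41-fold of hpo. For chap, the gene of an AT-hook protein, they were 16.6 and 12.1 RPKM, 1.37-fold higher (1.26 to 1.496). The catalytic subunit gene hda-1 had 31.1 and 28.2 RPKM, 1.10-fold higher (1.05 to 1.16), and its log2 ratio of 0.14 turned negative with median centring (-0.015) and TMM scaling (-0.040).

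Of 3 genes whose products keep heterochromatin from spreading, 2 had ratios below 1 and none passed 2-fold. Over all genes above the minimum, 40.6% had a ratio below 1, 16.5% were at least 2-fold higher and 5.52% at least 2-fold lower. The JmjC domain gene dmm-1 had 9.25 RPKM in the knockout against 11.3 RPKM in the wild type, 1.22-fold lower (1.14 to 1.30). For its partner dmm-2 the values were 9.21 and 8.92 RPKM, and the interval of the ratio, 0.961 to 1.11, includes 1. NCU09120, annotated as a lysine-specific histone demethylase, had 9.91 and 12.9 RPKM, 1.30-fold lower (1.22 to 1.38). With length centring the log2 ratios were -0.16 for dmm-1, 0.15 for dmm-2 and -0.24 for NCU09120. The polycomb methyltransferase gene set-7, which acts on facultative heterochromatin, was below the minimum at 3.87 and 2.50 RPKM. The entries dim-1, dim-3, eed, suz12 and npf matched no symbol and were not analysed here.

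**Figure D3:**
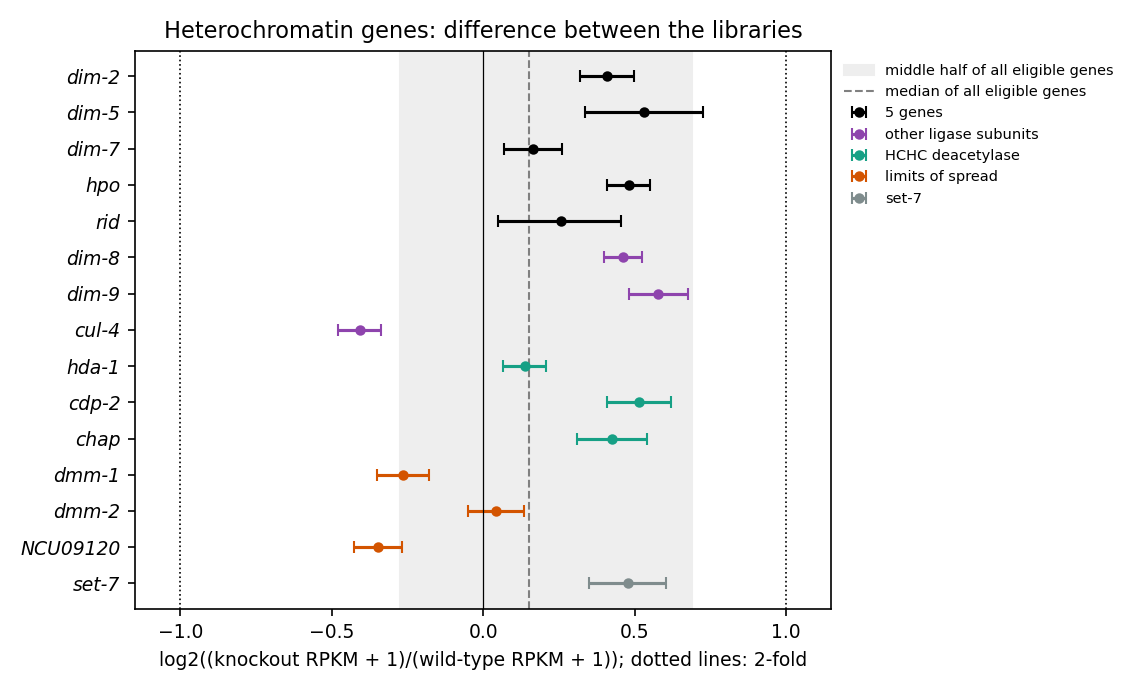
Log2 ratio with its 95% counting interval for the 5 genes (black), the 3 other DCDC genes (purple), the HCHC genes (green), genes that limit heterochromatin spread (orange) and set-7 (grey); the shaded band is the interquartile range of all genes above 5 RPKM and the dashed line their median of 0.15. All 5 genes lie in the band, while cul-4 at -0.41 and NCU09120 at -0.35 lie to its left.

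Wider chromatin lists held genes past 2-fold. Of 11 SET domain genes other than dim-5 and set-7, 10 were above the minimum, with 3 higher, none lower and a median log2 ratio of 0.49. The 3 were set-6 with 86.6 and 29.6 RPKM (2.93-fold higher), NCU06658 with 36.5 and 12.5 RPKM (2.93-fold higher) and set-5 with 9.83 and 3.06 RPKM (3.21-fold higher). A pseudocount of 5 (log2 ratio 0.88) or length centring (0.86) brought set-5 below 2-fold. Of 10 deacetylase genes other than hda-1, 9 were above the minimum, with 1 higher, none lower and a median of -0.06. The one was the sirtuin gene nst-7 with 12.99 and 3.45 RPKM, 3.76-fold higher (3.14 to 4.53). Both nst-7 and set-5 were in the eighth of genes of lowest mean level, where the median log2 ratio was 0.67. Their own log2 ratios were 1.65 and 1.42. Level centring was not run on these lists. Of all genes above the minimum, 16.5% were at least 2-fold higher and 5.52% at least 2-fold lower, so none lower in lists this short says little.

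Histones carry the mark that DIM-5 writes, and none of the 9 histone genes passed 2-fold, and their median log2 ratio was -0.45, where 16.5% of all genes were called higher and 5.52% lower. The histone H3 gene hH3 had 1530 RPKM in the knockout against 2530 RPKM in the wild type, 1.65-fold lower (1.64 to 1.67), and the linker histone gene hH1 had 126 and 206 RPKM, 1.64-fold lower (1.60 to 1.67). The length behind the RPKM of hH1, 2467 bp, exceeds the 1802 bp that its model spans, so its level is uncertain. The 3 variant genes had ratios above 1. hH2Az had 138 and 100.2 RPKM, 1.37-fold higher (1.33 to 1.43), and hH3v, a second histone H3 entry, had 82.2 and 55.1 RPKM, 1.49-fold higher (1.37 to 1.62). The H4 variant gene hH4v had 39.5 and 30.4 RPKM, 1.30-fold higher (1.21 to 1.39). With length centring the log2 ratios of these variants came near 0 (hH2Az 0.14, hH3v 0.0090, hH4v 0.050), and hH3 (-1.06), hH2A (-1.04) and hH2B (-1.06) passed 2-fold lower.

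DIM-2 and DIM-5 both take methyl groups from S-adenosylmethionine. Of 8 genes of its synthesis and recycling, 7 had ratios below 1, 2 of them at least 2-fold lower, and the median log2 ratio was -0.52. Over all genes above the minimum, 40.6% had a ratio below 1 and 5.52% were at least 2-fold lower. The methionine synthase gene met-8 had 505 RPKM in the knockout against 1254 RPKM in the wild type, 2.48-fold lower (2.46 to 2.50). NCU10020, with the same product name, had 27.1 and 58.1 RPKM, 2.14-fold lower (2.03 to 2.27), but a pseudocount of 5 took its log2 ratio to -0.97. A further methionine synthase entry, NCU06171, had 12.3 and 18.9 RPKM.

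The gene of S-adenosylmethionine synthetase, eth-1, had 297 and 407 RPKM, 1.37-fold lower (1.35 to 1.39). For cys-18, which encodes adenosylhomocysteinase, the enzyme that clears the product of methylation, the values were 330 and 629 RPKM, 1.91-fold lower (1.88 to 1.94), and it passed 2-fold lower with median centring (log2 ratio -1.08), TMM scaling (-1.11) and length centring (-1.09). NCU07929, a second adenosylhomocysteinase entry, had 68.7 and 94.1 RPKM. The methylenetetrahydrofolate reductase genes NCU07690 and NCU09545 had 157 against 178 RPKM and 36.9 against 28.7 RPKM. The last of these was the one gene of the 8 with a ratio above 1, and this split of 7 and 1 held under TMM scaling and under centring by the median or by length.

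**Figure D4:**
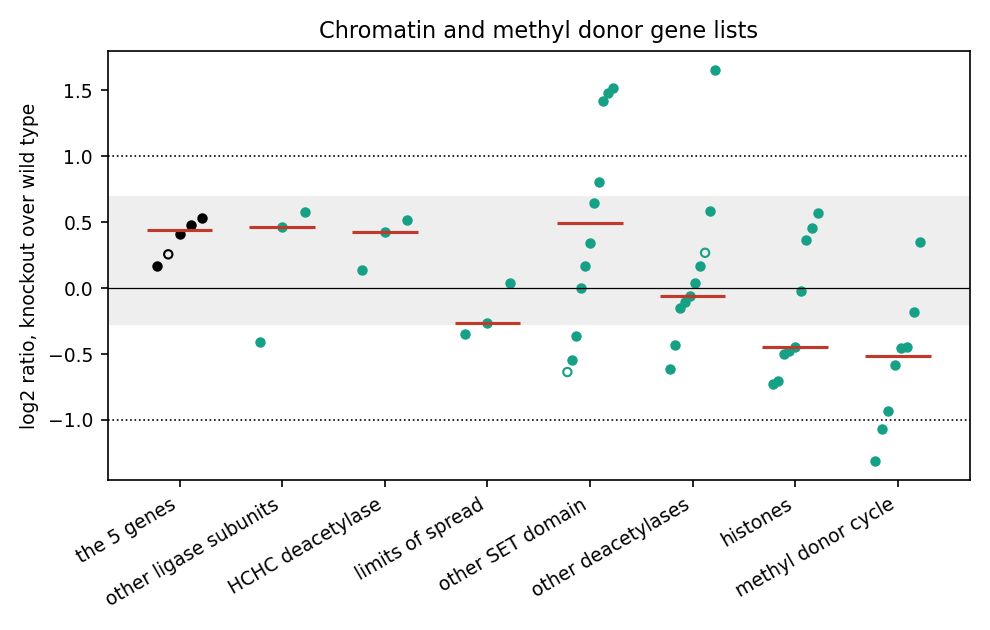
Log2 ratio of each gene by list, with filled points for genes of at least 5 RPKM in at least 1 library, open points for genes below it, red lines at the median of the filled points, the interquartile range of all genes shaded and 2-fold dotted. Medians are 0.44 for the 4 filled genes of the first column, -0.45 for histones and -0.52 for the methyl donor cycle.

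The 5 gene models lie on 5 different supercontigs, and none overlaps another gene model in the table. Their 10 nearest neighbours lay 70 to 2430 bp away, 6 with a ratio above 1 and 4 below, where 40.6% of all genes above the minimum had a ratio below 1. None was called on the log2(RPKM + 1) scale, where 16.5% of all genes above the minimum were called higher and 5.52% lower. NCU11739, NCU10110 and NCU02035 were below the minimum in both libraries, so they could not be called. NCU02246 beside dim-2, at a log2 ratio of -0.96, was 2.25-fold lower by read shares (1.97 to 2.58). The smallest gap was that of dim-7 to NCU04151, which faces it tail to tail. The sources used here do not say whether counting used strand, so reads from the ends of these 2 genes may not be separable. NCU04151 had 22.6 RPKM in the knockout against 17.3 RPKM in the wild type, and NCU04153 on the far side of dim-7 had 49.96 and 36.7 RPKM.

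Beside dim-2, NCU02246 had 3.09 and 6.96 RPKM and NCU02248 had 15.5 and 14.9 RPKM. Beside dim-5, NCU11739 had 3.32 and 4.30 RPKM and NCU10110 had 2.87 and 3.46 RPKM. Both neighbours of dim-5 thus stood below it in each library, with ratios under 1, although the interval for NCU10110, 0.669 to 1.03, includes 1. Beside hpo, NCU04018 had 5.76 and 4.69 RPKM and NCU12110 had 88.8 and 81.5 RPKM. Beside rid, NCU02035 had 4.71 and 2.84 RPKM and NCU02033 had 7.72 and 12.4 RPKM, so the rid locus held differences in both directions.

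Among genes with a symbol, those closest in level over both libraries, by Euclidean distance of log2(RPKM + 1) over the 2 samples, were atrx (0.059) and lao (0.076) for dim-2, aod-2 (0.050) and crf3-1 (0.052) for dim-7, and rbg-40 (0.048) and prk-10 (0.12) for hpo. They were cdt-1 (0.15) and neg-1 (0.16) for dim-5, and nst-6 (0.13) and pre-2 (0.13) for rid. With only 2 samples this likeness amounts to a like level and a like ratio.

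Markers of other cell types differed between the libraries. All 6 conidiation markers were past 2-fold, where 16.5% of all genes were higher and 5.52% lower, 4 higher (con-6, con-8, con-10 and con-13) and 2 lower (eas and fl), with a summed level of 2529 RPKM in the knockout against 16070 RPKM in the wild type that is mostly eas. A pseudocount of 5 took con-13 below 2-fold (log2 ratio 0.79). Of 11 markers of mating and sexual tissue, where RID acts, 5 were above the minimum, with asd-1 and asd-3 higher and poi-2 lower. Their summed level was 140 and 81.4 RPKM for all 11 markers, or 65.6 and 65.3 RPKM without asd-1. The sum without asd-1 was mostly pp-1, at 43.8 and 45.0 RPKM, so it says little of the other markers. With a pseudocount of 5, asd-3 (0.96) and poi-2 (-0.89) fell short of 2-fold. On supercontig 6 the asd-1 model ends at base 1380263 and faces tail to tail the asd-3 model, which begins at base 1380321. Reads of asd-1 and asd-3 may thus not be separable. The mating-type genes matA-1, matA-2 and matA-3 had no read in either library. As the mating type is not given, it is not known whether either strain carries these genes. The part of other cell types in the values of the 5 genes was not tested.

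**Figure D5:**
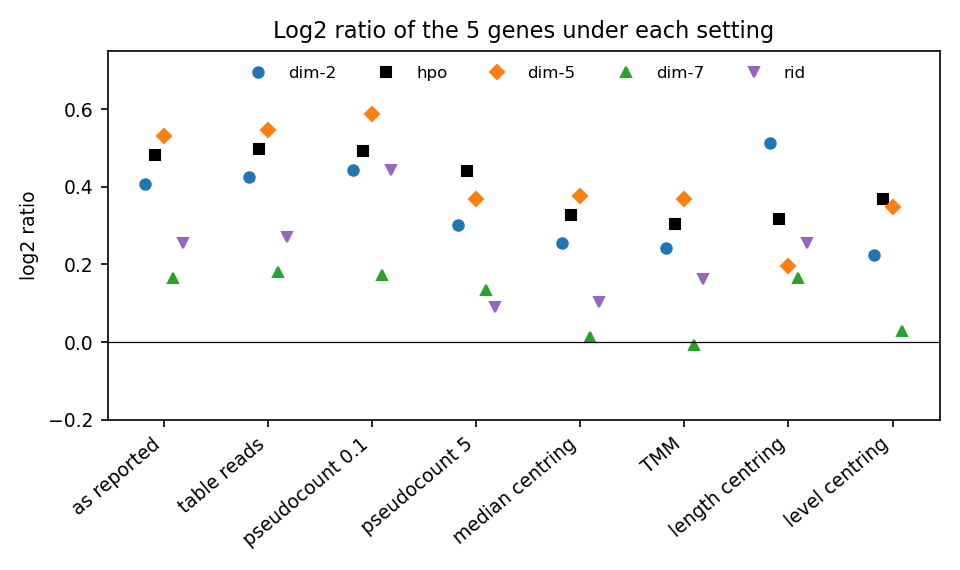
Log2 ratio of each of the 5 genes as reported and under 7 other settings of scaling, pseudocount, length and level. All values stay below 1, and dim-7 (green) falls to 0.012 with median centring and -0.0073 with TMM scaling; rid has no value for level centring.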

How the data were processed

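Per the file headers, the values deposited for each gene model are raw counts of reads and RPKM. Column names starting with U1 or Wt were taken as the UPF1 and WT sample titles. The authors' RPKM values are scaled by gene model length and a library total. The submitters' processing notes name Bowtie 0.12.2. Not given in the sources used here are the genome build, annotation, counting method and strand use. Library totals were recovered as the value of reads over RPKM and span shared by 551 genes, and the table holds 94.4% (knockout) and 95.4% (wild type) of them. Names come from RefSeq's NC12 gene table, in which 8930 of the 9454 identifiers were found. Log2 ratios compare RPKM + 1 of the knockout with RPKM + 1 of the wild type, computed in Python 3.11.15 with scipy 1.17.1. TMM factors came from edgeR 4.0.16, and no edgeR test was run. Median centring subtracts the median log2 ratio of all genes above 5 RPKM, and length or level centring that of the eighth of genes of like length or mean level. Median centring shifts all log2 ratios by -0.15. TMM shifts ratios of read shares by -0.18 in log2 units. With the added 1, its shift of log2 ratios is smaller for rare transcripts, as for rid from 0.26 to 0.16. The ratio intervals were tested only on simulated Poisson counts, without copied reads or variation between cultures, so that run cannot show how they hold under either. The intervals of levels and of quotients were not tested.

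The members and lists were chosen with earlier results of these data known. The rule for named genes took the 5 genes, upf1, all genes of the DCDC, HCHC, spread, polycomb and methyl donor lists, genes past 2-fold in the other lists, the nearest gene models and the genes of closest level. Lists were matched by symbol, synonym or product name. The histone genes and cell type markers named, and the quotients between genes, were chosen after their values were seen. Alternatives were pseudocounts of 0.1 and 5, a filter of 20 RPKM or none, and the scalings above.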

Additional observations from a re-analysis of the deposited data

How the results depend on the processing

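No paired analysis was possible because each strain had 1 pooled library. None of the 5 genes passed 2-fold under any of the 7 alternatives run on them. Their median log2 ratio of 0.41 was 0.30 with a pseudocount of 5, 0.26 with median centring, 0.24 with TMM scaling and 0.26 with length centring. The log2 ratio of dim-2 moved outside its counting interval, to 0.30 with a pseudocount of 5, 0.26 with median centring, 0.24 with TMM scaling, 0.51 with length centring and 0.22 with level centring. The same holds for hpo, at 0.33, 0.30, 0.32 and 0.37 with median, TMM, length and level scaling, for dim-7, at 0.012, -0.0073 and 0.030 with median, TMM and level scaling, and for dim-5 at 0.20 with length centring. The other changes of the 5 genes stayed inside the counting interval. Level centring gave no value for rid, whose level is below that of the genes binned, nor for the median of the 5. Over all genes, 1621 were past 2-fold, and 1085 to 1862 under the alternatives. The higher share of these, 74.9%, was 64.1% with median centring, 62.6% with TMM scaling and 58.5% with length centring. Of the 45 list genes above the minimum, 6 were past 2-fold (4 higher, 2 lower), and 9 (3 higher, 6 lower) with length centring. Among all 7367 genes above the minimum, 1621 were past 2-fold (1214 higher, 407 lower), and 1455 (851 higher, 604 lower) with length centring. At 72 wild-type reads the depth limits rid most.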

Other observations

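On supercontig 5, dim-7 and upf1 are 313.5 kb apart as deposited. Between them lie 79 gene models, of which 61 reached 5 RPKM in either library, with 10 past 2-fold on the higher side, 4 on the lower side and a median log2 ratio of 0.26, beside 16.5%, 5.52% and 0.15 over all genes above that minimum. In counts past 2-fold the stretch thus stands near the background. This stretch was chosen after the data were seen.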
